A study of Homo sapiens with 42 samples.

Results

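The regions described here were stretches near the ends of protein-coding genes that had accessible chromatin calls after treatment with FHT-1015 and none in the solvent control. In each of 7 human cancer cell lines, bases covered by a called interval in all 3 FHT-1015 samples were kept as segments of at least 100 bp on chromosomes 1 to 22 and X. A segment counted as gained when no interval of the line's 3 DMSO samples overlapped it, and as lying at a gene end when its centre was within 1 kb of either end of a RefSeq protein-coding gene. The rule gave 548 segments, which pooled to 545 regions, out of 73753 gene-end segments shared by the 3 FHT-1015 samples of a line (0.743%). The regions were thus chosen by the calls of the FHT-1015 and DMSO samples in the line of the gain, so their values in that contrast are a description and carry no test.

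Accessibility was read by ATAC-seq: a transposase cuts and tags DNA where nucleosomes do not shield it. FHT-1015 inhibits both SMARCA4 and SMARCA2, the alternative ATPases of the BAF complexes. The lines were A375 (melanoma) and 92-1 (uveal melanoma), MV411 (acute myeloid leukemia), HCT116 (colorectal adenocarcinoma), DU4475 (invasive breast carcinoma), RD (rhabdomyosarcoma) and 22RV1 (prostate adenocarcinoma), all labelled wild type, each a single established line with no transgene named. Each of the 14 groups, FHT-1015 or DMSO as the negative control for 4 h in each line, held 3 biological replicates, 42 samples in all. The dose was not stated in the labels. MV411 is labelled like the others but is not named in the design text of the series. Whether replicates were separate cultures is not stated, so the p-values below compare only the calls of these samples and do not reach beyond them.

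BAF complexes use the energy of ATP to slide or evict nucleosomes and are needed above all to keep enhancers open. Promoters of active genes hold a nucleosome-depleted stretch just before the transcription start, flanked downstream by a regularly placed first nucleosome, and other remodellers also act there. Openness at a 3′ end is less usual and can mark an enhancer or a neighbouring start. The question for these regions is which gene ends became callable when the remodeller was blocked, and how firmly.

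To show what the gained stretches look like where they reach a promoter, the strongest gained segment that overlapped a RefSeq promoter window by at least 50 bases is printed with that window for 6 of the lines, all but 22RV1. The window runs from 250 bases before to 50 bases after the start, 300 bases in all, 5′ to 3′ on the gene's strand, from RefSeq GRCh38.p14. Capitals mark the bases inside the gained segment.
SLC35B1 (92-1, chr17:49707915-49708214, minus strand): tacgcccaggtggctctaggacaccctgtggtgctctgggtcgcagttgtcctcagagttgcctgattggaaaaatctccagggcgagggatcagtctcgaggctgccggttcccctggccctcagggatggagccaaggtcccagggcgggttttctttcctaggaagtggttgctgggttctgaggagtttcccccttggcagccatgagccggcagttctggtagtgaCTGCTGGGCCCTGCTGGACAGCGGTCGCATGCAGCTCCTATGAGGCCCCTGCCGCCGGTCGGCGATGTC
CRYZL2P-SEC16B (RD, chr1:178037927-178038226, minus strand): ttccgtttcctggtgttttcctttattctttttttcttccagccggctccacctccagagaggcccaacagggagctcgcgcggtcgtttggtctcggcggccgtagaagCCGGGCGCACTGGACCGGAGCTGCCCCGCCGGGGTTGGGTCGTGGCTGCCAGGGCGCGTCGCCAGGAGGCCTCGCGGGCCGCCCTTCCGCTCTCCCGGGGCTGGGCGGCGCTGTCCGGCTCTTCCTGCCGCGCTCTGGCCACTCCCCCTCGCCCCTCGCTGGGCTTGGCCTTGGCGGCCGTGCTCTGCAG
EML2 (A375, chr19:45645580-45645879, minus strand): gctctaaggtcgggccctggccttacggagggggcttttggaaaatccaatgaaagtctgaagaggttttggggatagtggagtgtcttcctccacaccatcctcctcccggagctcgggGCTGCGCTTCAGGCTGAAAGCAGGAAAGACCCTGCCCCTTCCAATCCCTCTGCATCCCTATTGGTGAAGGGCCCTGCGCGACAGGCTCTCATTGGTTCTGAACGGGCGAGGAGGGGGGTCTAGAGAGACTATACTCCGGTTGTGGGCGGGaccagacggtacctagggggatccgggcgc
NMRK2 (DU4475, chr19:3933339-3933638, plus strand): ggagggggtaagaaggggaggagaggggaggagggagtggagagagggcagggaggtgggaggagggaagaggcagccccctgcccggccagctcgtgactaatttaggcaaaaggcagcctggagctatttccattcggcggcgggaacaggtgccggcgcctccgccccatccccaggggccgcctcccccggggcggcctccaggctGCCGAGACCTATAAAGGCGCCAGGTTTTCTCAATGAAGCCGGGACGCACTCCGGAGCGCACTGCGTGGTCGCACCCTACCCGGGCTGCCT
PRDX2 (HCT116, chr19:12801751-12802050, minus strand): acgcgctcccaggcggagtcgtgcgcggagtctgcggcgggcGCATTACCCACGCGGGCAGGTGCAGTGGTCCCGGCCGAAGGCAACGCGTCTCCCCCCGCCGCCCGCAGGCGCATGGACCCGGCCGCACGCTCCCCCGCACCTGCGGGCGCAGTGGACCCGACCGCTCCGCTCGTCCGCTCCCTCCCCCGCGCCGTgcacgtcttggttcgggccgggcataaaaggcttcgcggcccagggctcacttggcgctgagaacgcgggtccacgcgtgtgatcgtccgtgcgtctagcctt
RAMACL (MV411, chr6:166586629-166586928, minus strand): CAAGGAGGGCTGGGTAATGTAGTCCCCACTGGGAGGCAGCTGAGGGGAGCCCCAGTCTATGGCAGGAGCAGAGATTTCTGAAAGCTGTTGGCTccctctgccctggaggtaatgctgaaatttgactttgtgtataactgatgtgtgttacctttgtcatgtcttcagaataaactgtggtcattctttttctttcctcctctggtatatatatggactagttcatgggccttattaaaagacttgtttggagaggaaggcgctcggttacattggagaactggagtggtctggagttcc

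The windows differ in kind. PRDX2, a peroxiredoxin that removes peroxides, had 46 CpG dinucleotides in its window, 24 of them inside the 155 gained bases, and its segment had −log10 p of 7.12, 9.01 and 9.34 in the 3 HCT116 FHT-1015 samples. RAMACL had 2 CpG in the window and none in the 93 gained bases that fell in it, at its upstream edge. The whole RAMACL segment is 173 bp, and its bases outside the window were not read. Its −log10 p was 12.1, 8.18 and 11.9 in MV411. NMRK2, a nicotinamide riboside kinase, was gained in DU4475 over 90 bases of its window that include a TATAAA, with −log10 p of 3.91, 4.44 and 3.94. EML2, which encodes a microtubule-binding protein, was gained in A375 over 150 bases holding 3 of the 4 CCAAT sequences of its window, with −log10 p of 4.47, 14.7 and 5.65. SLC35B1, an endoplasmic reticulum protein of the nucleotide sugar transporter family, was gained in 92-1 at 3.88, 3.94 and 3.94. The read-through gene CRYZL2P-SEC16B was gained in RD at 3.88, 5.27 and 4.76. The −log10 p of a segment is here the highest of any summit in the interval that covers it in a sample, and the sample lists begin at about 2.

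The number gained differed between lines and was small in each. 22RV1 had 169 gained gene-end segments of 13635 shared by its FHT-1015 samples (1.24%), 92-1 had 37 of 3264 (1.13%) and A375 had 114 of 12344 (0.924%). HCT116 had 82 of 10705 (0.766%), DU4475 had 69 of 11438 (0.603%), RD had 39 of 10432 (0.374%) and MV411 had 38 of 11935 (0.318%). Gene ends held 7.03% of all gained segments and 33.5% of all segments shared by the FHT-1015 samples. Elsewhere 7245 segments (4.95% of those shared) were gained. The mirror count, segments in all 3 DMSO samples with no FHT-1015 interval, was 2746 at gene ends (3.17%). Losses outnumbered gains at gene ends in every line, by 730 to 38 in MV411, 565 to 37 in 92-1, 612 to 169 in 22RV1, 454 to 39 in RD, 160 to 114 in A375, 136 to 69 in DU4475 and 89 to 82 in HCT116.

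**Figure D1:**
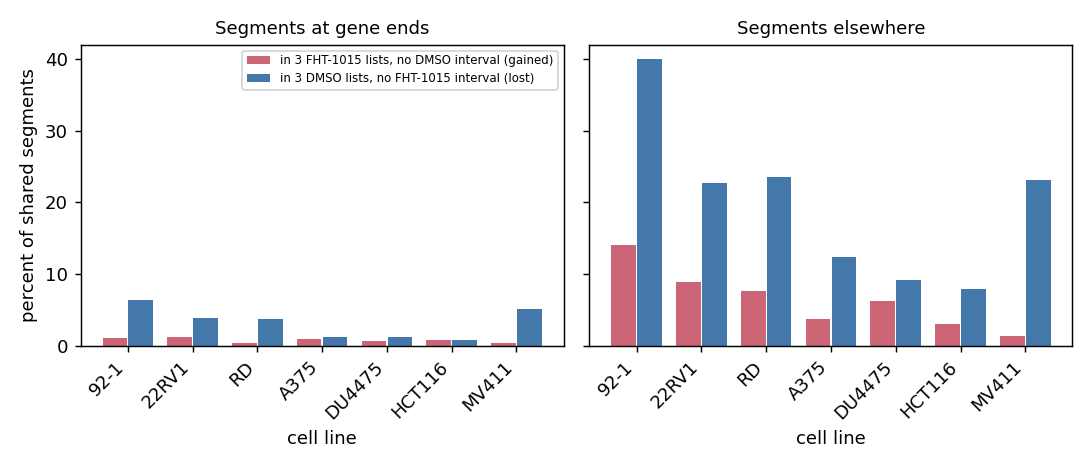
Percent of segments shared by the 3 samples of one treatment that no interval of the other treatment overlapped, by line, at gene ends (left) and elsewhere (right); bars in the first colour are gains with FHT-1015, in the second losses. At gene ends gains lie between 0.318% and 1.24% and are below losses in each line; elsewhere both are higher.

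Depth differed between treatments in several lines, and its link to the counts was not tested. The lists hold no read totals, so the lowest local background shared by many peaks of a sample stands in for depth. It lay between 0.768 and 1.02 reads in the FHT-1015 samples of 22RV1 and between 0.532 and 0.702 in its DMSO samples, higher in each FHT-1015 sample. In MV411, which had few gains and the most losses, it was 0.260 to 0.270 with FHT-1015 and 0.400 to 0.495 with DMSO. In RD, with a low gained share, it was 1.65, 1.009 and 1.18 with FHT-1015 and 0.817, 1.11 and 1.19 with DMSO. In 92-1, with a high gained share, it was 0.299, 0.0346 and 0.0341 with FHT-1015 and 0.430, 0.123 and 0.0839 with DMSO, so replicates 2 and 3 were shallow in both treatments. In A375 it was 1.35, 1.27 and 0.707 with FHT-1015 and 0.901, 0.679 and 0.606 with DMSO. DU4475 had 2.25, 2.79 and 1.41 with FHT-1015 and 1.98, 2.40 and 2.01 with DMSO. HCT116 had 0.159, 0.193 and 0.319 with FHT-1015 and 0.157, 0.281 and 0.242 with DMSO. When FHT-1015 pileups were drawn down to the lowest DMSO background of the line, 363 pooled regions were left of 545, with 108 in 22RV1, 60 in A375, 70 in HCT116, 48 in DU4475, 20 each in RD and 92-1 and 38 in MV411. Of all summits thinning kept 74.3% to 82.4% in the samples of 22RV1, 67.5% to 87.0% in A375, 64.3% to 84.0% in RD, 60.02% to 99.7% in HCT116, 79.1% to 100% in DU4475 and 66.5% to 100% in 92-1, and it removed nothing in MV411, whose FHT-1015 samples were the shallower. The labelled cell types were checked on 6 marker genes each: a DMSO interval lay at a gene end in all 3 samples for 6 markers in DU4475 and MV411, 5 in 22RV1 and RD, 4 in 92-1 and A375 and 3 in HCT116, with none for MYF5 in RD and VIL1 in HCT116. Each of these markers also had intervals in samples of other lines, so they identify a line only weakly.

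Gained gene-end regions were weak beside gene-end segments that DMSO samples also had. Taking as the strength of a segment the lowest of its 3 FHT-1015 values of −log10 p, the median was 3.46 and the range 2.00 to 9.23. Gene-end segments that 1 or 2 DMSO samples also had, 4667 in number, had a median of 4.34, and the 68538 that all 3 DMSO samples had, one of 15.4. The median pileup at the summit was 8, 10 and 29 reads and the median length of the shared stretch 150, 165 and 443 bp in the same order. Gains elsewhere had a lower median strength, 3.17, and gene-end losses, taken over the DMSO samples, a higher one, 4.47. In 283 of the 548 the lowest −log10 q was at least 1.3, and in 10 at least 5. A sample at its lowest background needed a pileup of 1 to 7 reads to be listed, so a DMSO sample without an interval may hold signal just short of that, and its level at the region is not recorded. Local background raises that number: it was at least 2 times the lowest of the sample in 231 of the gained segments (42.2%), against 76.8% of those also in 3 DMSO samples.

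**Figure D2:**
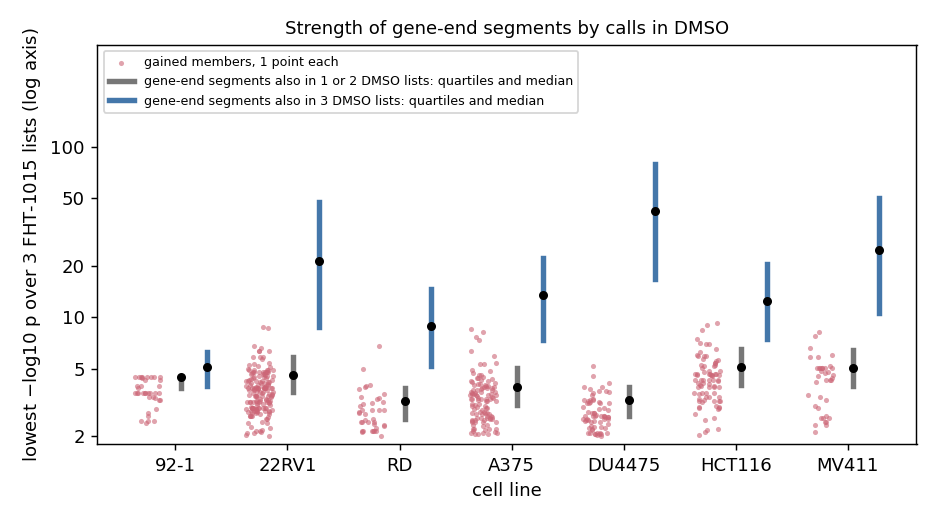
Strength of gene-end segments, the lowest −log10 p over the 3 FHT-1015 lists of the line, on a log axis. Points are gained members, bars run from the lower to the upper quartile of segments that 1 or 2, or 3, DMSO lists also had, with the median as a dot; members lie between 2.00 and 9.23, and the 3 classes lie closest together in 92-1.

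Strength differed between lines. The median was highest in MV411 (4.48) and HCT116 (4.26), intermediate in 22RV1 (3.67), 92-1 (3.58) and A375 (3.302), and lowest in RD (2.73) and DU4475 (2.64). The median pileup had another order: 12 reads in A375, 10 in DU4475, 8 in 22RV1 and RD, 6 in MV411 and HCT116 and 2 in 92-1. A p is taken against background, which was 0.159 to 0.319 in FHT-1015 samples of HCT116 and 1.41 to 2.79 in those of DU4475. Strength therefore does not rank the lines by signal. Interval lengths differed too. Segments that all 3 DMSO samples also had were a median of 193 to 342 bp long in 92-1, HCT116, MV411 and 22RV1. They were 711 to 911 bp long in RD, A375 and DU4475. Peak names of some lines hold the word small, whose meaning is not stated. Whether the lists of all lines were made alike was not tested, which limits every comparison between lines. At the length edge of the rule, 53 gained gene-end segments were 100 to 109 bp long and 58 more, left out, were 90 to 99 bp. At the distance edge, 27 had their centre in the last 100 bp inside the limit of 1 kb and 46, left out, in the first 100 bp beyond it.

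Many gained regions lay near an interval called in at least 1 DMSO sample of the line. The nearest DMSO interval of the line was a median of 225 bp away, within 200 bp for 256 segments (46.7%) and within 1 kb for 429 (78.3%). Gains elsewhere had a median of 620 bp and 27.6% within 200 bp, and gene-end losses, measured to FHT-1015 intervals, 382 bp and 33.6%. Segments called in all 6 samples of the line were farther off. The nearest was a median of 10480 bp from a gained gene-end segment, and within 1 kb for 164 of them (29.9%). That share was 4.31% for gains elsewhere and 26.5% for gene-end losses. In 233 gained segments 1 or 2 of the 3 covering FHT-1015 intervals, and in 12 all 3, also overlapped a DMSO interval farther along, so that an interval called in both treatments reached farther with FHT-1015. The remaining 303 (55.3%) were covered only by FHT-1015 intervals that met no DMSO interval, against 74.4% of gains elsewhere and 70.9% of gene-end losses. Of these 303, 184 (33.6% of all 548) also had a summit inside the segment in all 3 samples. Both conditions held for 42.4% of gains elsewhere and 59.1% of gene-end losses. These differences between classes of segments were not tested.

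Segments whose covering intervals met no DMSO interval and those whose intervals did were then set side by side. Those with no contact had a median strength of 3.41, a median distance to the nearest DMSO interval of 622 bp and covering intervals of 237 bp at the median. Those with 1 or 2 contacts had a median strength of 3.58, a gap of 91 bp and covering intervals of 332 bp. Of the separate segments 130 were nearest a 5′ end and 104 a 3′ end, and of those with 1 or 2 contacts 140 and 39.

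Which end of the gene was nearest was no condition of the rule. Strand was known for 15813 of 19974 genes (79.2%). The nearest end was a 5′ end, the transcription start side, for 277 segments (50.5%), a 3′ end for 144 (26.3%) and of unknown kind for 127. Segments that all 3 DMSO samples also had were nearest a 5′ end in 79.0% and a 3′ end in 3.42%. Gene-end losses were close to the gains, with 54.7% at 5′ and 24.5% at 3′ ends, and the 3′ share was higher among gains than losses in 6 of 7 lines. DU4475 had more gains at 3′ than at 5′ ends (30 and 18), MV411 nearly as many (15 and 16) and HCT116 few (9 and 52). Around starts, 172 of 277 centres lay downstream of the start and 105 upstream, and the 500 bp that begin 250 bp downstream held 93 against 40 in the same stretch upstream. 22RV1 gave 36 and 12 of these, and DU4475 went the other way with 3 and 4. Segments that all 3 DMSO samples also had showed the same side in that stretch, with 13.8% of their 54140 5′ segments downstream and 5.91% upstream. There the asymmetry was not confined to gains. Over the whole 1 kb they leaned the other way, with 46.1% downstream of the start, against 62.1% of gains. Segments that 1 or 2 DMSO samples also had were between, at 54.1%. These differences were not tested. Around 3′ ends, 85 of 144 lay inside the gene, before the end, and 59 beyond it. That was 27 and 13 in 22RV1 and 20 and 10 in DU4475, while HCT116 (3 and 6) and MV411 (5 and 10) went the other way. Beyond the 3′ end lay 41.0% of gains, 50.9% of segments that 1 or 2 DMSO samples also had and 54.2% of those in all 3.

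**Figure D3:**
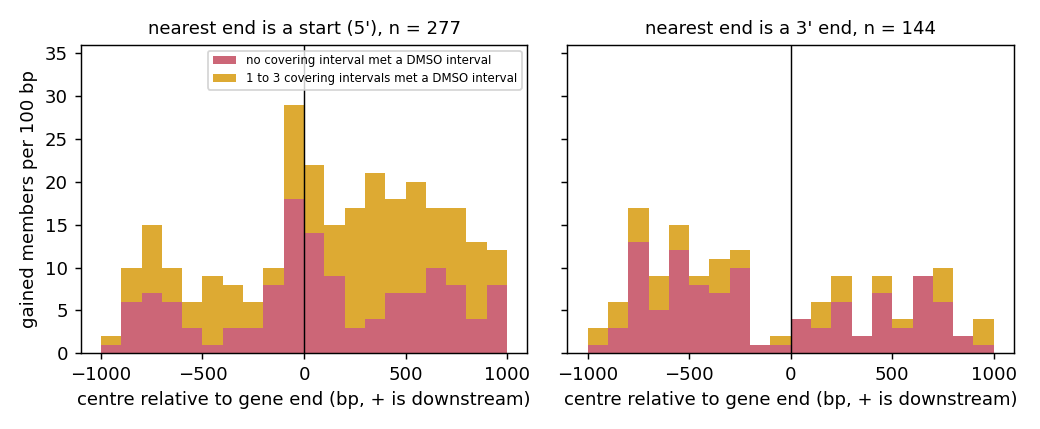
Distance of the centre of each gained member from the nearest gene end in bp, in bins of 100 bp, for the 277 nearest a start and the 144 nearest a 3′ end; positive is downstream in the direction of transcription, and colours separate members whose covering intervals met no DMSO interval from the rest. Downstream of starts 74 of 172 members are separate from DMSO intervals, and at 3′ ends 104 of 144.

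By the rule, almost every region was gained in 1 line. The rule asks for a shared segment of its own in each line. By calls alone, more regions had 3 FHT-1015 and 0 DMSO samples in a second line, such as PRAMEF18 in RD and SEPTIN12 in A375. Others had the reverse there, such as UAP1 in 22RV1. Of the 545 pooled regions 3 were gained in 2 lines and none in more, and these 3 are named for that reason, after their values were seen. COL1A2, a chain of type I collagen, was gained inside the gene in HCT116 (chr7:94395528-94395743), with −log10 p of 22.9, 8.78 and 6.95, and in A375 at 2.21, 5.50 and 4.02. The same place was called in all 3 DMSO samples of 22RV1, DU4475 and MV411, so the untreated cells of 3 other lines already had the call. MAS1L, an orphan receptor gene related to MAS1, was gained near its start in DU4475 (chr6:29487764-29487875; 3.25, 2.505 and 3.94) and RD (2.16, 3.08 and 2.31). PLAAT2, a phospholipid-metabolising acyltransferase, was gained in DU4475 (chr11:63564502-63564859; 3.91, 4.44 and 3.602) and HCT116 (3.23, 6.67 and 4.43). The MAS1L and PLAAT2 values all lay between 2.16 and 6.67, in the range of single-line gains.

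Of the 2 strongest regions of each line other than 92-1, 12 in all, 8 lay within 200 bp of an interval called in DMSO. In HCT116, TAF7, a subunit of the general transcription factor TFIID, had a gained segment 420 bp after its start (chr5:141320297-141320431) with −log10 p of 9.23, 10.1 and 14.9 and pileups of 9, 11 and 12 reads. Its values in the 3 samples were thus close, and 1 of the 3 covering intervals met a DMSO interval, 84 bp away. VAV3, a guanine nucleotide exchange factor, had one 230.5 bp beyond its 3′ end (chr1:107570856-107571005) with 8.98, 12.6 and 12.8 on pileups of 6, 10 and 10 reads. In 22RV1, HBP1, an HMG-box repressor of cell cycle genes, had one 516.5 bp after its start (chr7:107169462-107169577) at 12.1, 8.76 and 17.98, with pileups of 36, 35 and 50 reads and fold enrichments of 3.82, 3.01 and 4.30. The HBP1 region was 49 bp from a DMSO interval, and 2 of its 3 covering intervals met one.

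In A375, UAP1, the enzyme that makes UDP-N-acetylglucosamine, had a gained segment 704.5 bp before its start (chr1:162560752-162560901). Its −log10 p was 56.7, 8.54 and 65.2 and its pileup 92, 41 and 97 reads. The samples split: in replicates 1 and 3 the covering intervals were 1807 and 1830 bp wide and in replicate 2 only 168 bp, so the high values belong to wide intervals that met DMSO intervals. UBE2G2, a ubiquitin-conjugating enzyme of endoplasmic reticulum quality control, had one 596.5 bp after its start (chr21:44801141-44801306) at 9.98, 8.16 and 17.1. In RD, TRIB2, a Tribbles pseudokinase, was gained 771 bp before its start (chr2:12716096-12716234) at 6.77, 15.4 and 37.3, where again replicates 2 and 3 had intervals of 2159 and 1922 bp and replicate 1 one of 184 bp. BHLHE40, a transcriptional repressor of the circadian system, was gained in RD 949.5 bp after its start at 5.12, 5.001 and 10.2, with no covering interval meeting a DMSO interval and a summit inside in all 3 samples. Of these A375 and RD regions BHLHE40 was the separate one.

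In MV411 both of the strongest regions were separate from DMSO intervals, with a summit inside in every FHT-1015 sample. RAMACL (chr6:166586836-166587008, promoter printed above) had pileups of 14, 10 and 12 reads, and the nearest DMSO interval was 704 bp away. The segment between TROAP, a spindle-associated protein, and C1QL4, a secreted C1q-like protein (chr12:49331693-49331898), had −log10 p of 7.79, 14.1 and 7.78 on 6, 10 and 6 reads, with no DMSO interval within 5194 bp. In DU4475, MUC17, a membrane mucin, was gained 644.5 bp beyond its 3′ end (chr7:101059453-101059554) at 5.87, 6.57 and 5.20 and was likewise separate, while BMS1, a GTPase of ribosome assembly, was gained 652 bp before its start at 4.51, 18.1 and 16.8. In BMS1 the high values came from intervals of 858 and 823 bp that met a DMSO interval.

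In 92-1 the strength was tied. LINGO2, SYT7, OR8S1, HDC, CIAO2A, SLX4, ZNF414 and RRP7A, 8 genes, all had a lowest −log10 p of 4.46, which comes from 2 reads in the shallow replicates 2, 3 or both. In replicate 1 their values ran from 4.65 for SYT7 to 10.5 for CIAO2A, an assembly factor for iron-sulphur proteins, on 4 to 12 reads. HDC makes histamine, SYT7 is a calcium sensor of exocytosis and SLX4 a scaffold of DNA nucleases. A pileup of 2 reads cannot rank them, and no 92-1 segment reached a lowest −log10 q of 5. RRP7A and CIAO2A were called in 14 and 12 of the 18 DMSO samples of the other lines, and OR8S1 in 1.

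Gene groups were looked at for what the regions share. Of 19974 protein-coding genes 592 (2.96%) had an end within 1 kb of the centre of a gained region. The groups ran from 0% to 9.09%, the extremes being small groups. C2H2 zinc finger genes had 18 of 608, solute carriers 15 of 386, cytosolic ribosomal proteins 4 of 84 (RPL17, RPL39 and RPS9 among them), mitochondrial ribosomal proteins 2 of 77 and replication-dependent histones 3 of 70. Translation initiation factors had 5 of 55, of which EIF4EBP1 and EIF4EBP3 encode proteins that bind and inhibit eIF4E and came in by their symbol. Clustered protocadherins had 3 of 53, immediate early genes 2 of 30 (JUN and JUNB), HOX genes 1 of 40, respiratory complex genes 1 of 96 (UQCRB), Polycomb group genes 1 of 30 and the subunits of BAF itself 1 of 29. Proteasome subunits (0 of 50), heat shock and chaperone genes (0 of 72), other ATP-dependent remodellers (0 of 20) and keratin-associated proteins (0 of 94) had none. The groups are too small for these shares to be ordered, and each gene counts once however many lines or ends it had. Olfactory receptors (6 of 392) and the multi-copy cancer-testis and PRAME families (3 of 196) were below the share of all genes, but few of their genes had any gene-end segment shared by the FHT-1015 samples of a line. Over genes with such a segment they had 6 of 54 (11.1%) and 3 of 26 (11.5%), above the 3.99% of all such genes, on small counts. Reads of near-identical copies make the latter family uncertain.

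The strongest region of each group shows how these gains looked. JUN, a subunit of AP-1, was gained in 22RV1 592 bp before its start (chr1:58784584-58784694) with −log10 p of 66.1, 6.65 and 5.39, the first from an interval of 962 bp and the others from 176 and 154 bp. BCL7A, the BAF subunit, was gained in 22RV1 914 bp after its start (chr12:122022724-122022872) at 2.02, 4.77 and 4.11, the first just above the threshold of the list. KDM2B, which binds CpG islands and recruits a Polycomb complex, was gained in A375 17 bp after its start (chr12:121582181-121582343) at 5.97, 11.4 and 2.72. RPS9 was gained in A375 at 4.41, 35.98 and 8.25, a ribosomal protein gene whose segment lay 905.5 bp beyond its 3′ end. HOXB2, a patterning factor, was gained in 22RV1 at 4.91, 5.94 and 5.10, a separate segment with nearly equal values, 39 bp from a DMSO interval. The histone segment near H2AC7, H3C4 and H2BC7 in A375 had 5.43, 33.0 and 3.66 and was called in no sample of the other 6 lines. EIF4EBP3 (A375) had 12.4, 16.7 and 4.58, PCDHB11 (A375) 4.92, 27.1 and 5.02, UQCRB, a subunit of respiratory complex III (A375), 20.4, 13.8 and 6.36, and ZNF827 (A375) 8.001, 15.8 and 7.33. In these A375 regions 1 or 2 samples had wide intervals of more than 1000 bp and the others narrow ones. MRPL21 (22RV1) had 5.27, 4.15 and 4.25, SLC4A8 beside GALNT6 (22RV1) 6.81, 10.5 and 13.2, and the cancer-testis gene CT45A1 (HCT116), with near-identical copies on X, 11.1, 8.78 and 5.95.

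By chromosome, gained segments made up 1.26% of shared gene-end segments on chromosome 19 (64 segments) and 1.19% on chromosome 12 (46), and 0.280% on chromosome 10 (8), with the other chromosomes between 0.420% and 0.912%. Of the 548 segments 329 had their centre inside the nearest gene and 59 were near ends of several genes.

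The 6 lines that did not choose a region give readings independent of the rule, from 18 DMSO and 18 FHT-1015 samples each. In these, the regions were called in a median of 4 DMSO and 4 FHT-1015 samples. DMSO calls were found in 0 samples for 59 of the 548 segments, in 1 to 8 for 349, in 9 to 17 for 136 and in all 18 for 4, and 26 were called in none of the 36 samples. FHT-1015 calls outnumbered DMSO calls for 199 segments, were fewer for 222 and equal for 127. Segments gained in HCT116 stood out with a median of 13 DMSO and 11 FHT-1015 calls, as 60 of the 82 were called in 9 to 17 DMSO samples. Segments gained in DU4475, RD, A375, 22RV1 and 92-1 had medians of 3 to 4 DMSO calls and those of MV411 7. Shared gene-end segments that all 3 DMSO samples of the line had were called in a median of 18 DMSO and 17 FHT-1015 samples of the other lines.

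**Figure D4:**
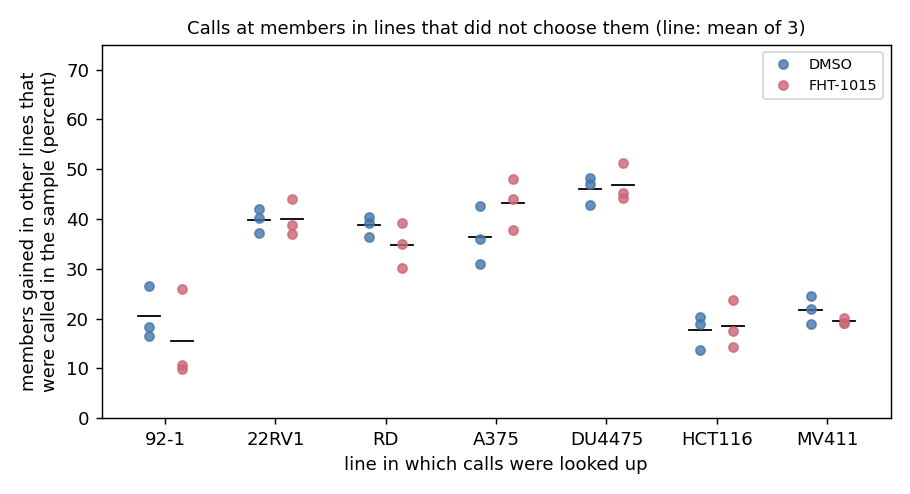
Percent of the members gained in other lines that were called in each sample, by line in which the calls were looked up; each point is 1 sample and the black line the mean of 3. The ranges of the treatments overlap in every line, and the group means run from 15.5% in 92-1 to 46.9% in DU4475, both with FHT-1015, where segments that were not gained reach 62.0% and 89.5%.

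Across samples the share of regions called overlapped between treatments in every line. In A375 it was 36.5% ± 5.89 (SD, n = 3) with DMSO and 43.2% ± 5.11 with FHT-1015, in DU4475 46.0% ± 2.84 and 46.9% ± 3.71, and in 22RV1 39.8% ± 2.39 and 39.9% ± 3.70. In RD it was 38.7% ± 2.13 and 34.8% ± 4.52, in HCT116 17.7% ± 3.49 and 18.6% ± 4.80, in MV411 21.8% ± 2.85 and 19.5% ± 0.566, and in 92-1 20.5% ± 5.40 and 15.5% ± 9.11. Gene-end segments that were not gained were called far more often in the same samples, at 80.0% with DMSO and 62.0% with FHT-1015 in 92-1 and 91.1% and 91.7% in A375. RD had 91.2% and 86.9%, HCT116 83.1% and 84.1%, 22RV1 92.6% and 91.5%, MV411 86.2% and 84.7%, and DU4475 90.1% and 89.5%. The lower means with FHT-1015 in 92-1 and RD were thus found in both kinds of segment. No test was run on these shares, since the regions were chosen together.

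Region by region, an exact two-sided permutation test within lines was run over the calls in the other 6 lines, with Benjamini-Hochberg adjustment over all gene-end segments of the line. No gained region passed in either direction, nor did any of the 73753 segments (0% called in both directions), and the lowest adjusted p of a gained region was 1. The test had little room to pass any. With 3 samples per group and adjustment over 3264 to 13635 segments of a line, only a near-complete switch in most other lines could pass. In addition, 26 gained segments had no call there and 2 were called in all 36 samples, so their outcome was fixed. The result thus says nothing on smaller or line-specific differences. At an unadjusted p under 0.05, 2 gained regions were called more often with FHT-1015 (of all segments 0.0786%) and 5 less often (of all segments 1.03%), numbers too small to set against those shares. The smallest values belonged to PRAMEF18, a member of a multi-copy family gained in DU4475, called in 0 DMSO and 7 FHT-1015 samples (exact p = 0.005, adjusted p = 1), and SEPTIN12, a septin of sperm, also gained in DU4475, in 1 and 7 (exact p = 0.04, adjusted p = 1). In the other direction were GNG8, a G protein subunit gained in A375, in 11 DMSO and 4 FHT-1015 samples (exact p = 0.018, adjusted p = 1), and FAM149A, gained in 22RV1, in 13 and 7 (exact p = 0.02, adjusted p = 1). PRAMEF18 reads may come from its near-identical copies.

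**Figure D5:**
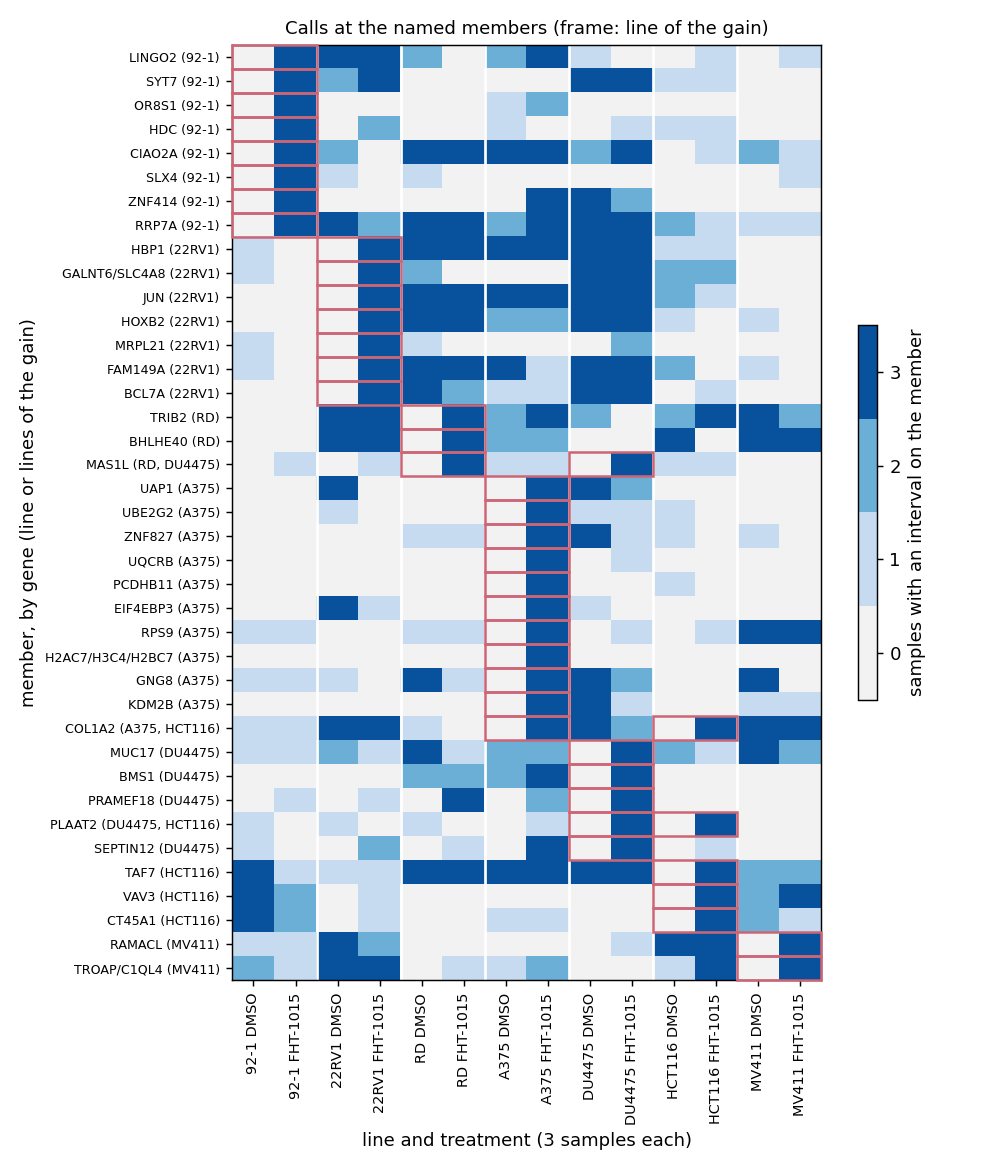
Number of samples, of 3, with an interval on each named region, by line and treatment; frames mark the line of the gain, where by the rule DMSO is 0 and FHT-1015 is 3. HBP1, JUN and TAF7 are called in both treatments in several other lines, while the histone region near H2AC7 is called in A375 only.

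The line-by-line calls of named regions fell into kinds. HBP1 and TAF7 were called in all 3 samples of both treatments in RD, A375 and DU4475, where DMSO samples alone already had the call that 22RV1 and HCT116 gained. UAP1 was called in all 3 DMSO samples of 22RV1 and of DU4475 but in 0 FHT-1015 samples of 22RV1 and 2 of DU4475, the opposite direction to its gain in A375. KDM2B was called in 3 DMSO and 1 FHT-1015 samples of DU4475 against its gain in A375. OR8S1, PCDHB11, UQCRB and the histone region were called in at most 3 of the 36 other samples.

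Sequence of the 75 RefSeq promoter windows, of 72 genes, that a gained segment overlapped by at least 50 bases was set beside that of other promoters, as a description. Their median CpG count was 19, against 27 in the 12171 windows that a segment called in all 6 samples of a line overlapped and 21 over all 22012 protein-coding windows. Motifs were searched as letters on both strands. GGGCGG, the GC box, was in 64.0% of the 75, 74.6% of the windows called in all 6 samples and 56.3% of all. CCGGAAGT, an ETS site, was in 1.33%, 8.73% and 5.32%, and TATAAA in 8%, 4.77% and 9.49%. CCAAT was in 33.3%, 35.6% and 34.7%, CANNTG, the E box, in 65.3%, 58.6% and 65.1%, and TGANTCA, the AP-1 site, in 2.67%, 3.89% and 6.16%. TGACGTCA (CRE) was in 1.33%, 3.16% and 2.25%, the NRF1 motif in 1.33%, 2.31% and 1.49%, and the YY1 motif in 2.67%, 2.85% and 1.69%. With 75 windows 1.33% is a single promoter, so the rarer motifs cannot be ordered.

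The count of gained regions depended on the call rule. Requiring a −log10 q of at least 1.3 in each FHT-1015 sample left 283 regions, no DMSO interval within 200 bp left 292, and a length of at least 200 bp left 82. With intervals of −log10 q of at least 5 on both sides 166 regions were gained, of which 2 in 22RV1, 3 in A375, 3 in HCT116 and 2 in MV411 were among the 548 here. Asking for 2 FHT-1015 samples in place of 3 raised the count of 22RV1 from 169 to between 686 and 848.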

How the data were processed

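ATAC-seq peak lists in narrowPeak form, 1 for each of 42 samples, were used as the authors deposited them. Per the submitters' processing notes, Bowtie2, Picard, MACS2, limma and HOMER were used with hg38, with no role, order or version given. Whether reads were shifted for the transposase, and with which settings peaks were called, the labels and notes do not say. The fold enrichment in the deposited lists is a ratio of pileup to local background, and p and q are on the −log10 scale, as deposited. The lists start at −log10 p of 2 to 2.04 with intervals of at least 150 bp and have no threshold on q. The deposited score repeats p and was not used. Depth is not recorded, so pileup and background were solved from fold and p (tolerance 0.01 on −log10 p), and the lowest shared background, 0.0341 to 2.79 over the samples, stood in for depth and limits the precision of each call.

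Groups and replicate numbers came from the labels. Segments, gains and losses were computed as in the opening of the report, on RefSeq GRCh38.p14 genes (19974 protein-coding). Calls in the 6 lines that did not choose a region were tested by an exact stratified permutation test (FHT-1015 calls given the calls of each line), two-sided. Benjamini-Hochberg adjustment ran over the line's gene-end segments, threshold 0.05. The test was tried on simulated data whose planted regions switched fully in most of the 6 lines. It was not tried on weaker patterns like those here. Named were, by rule, regions gained in at least 3 lines (there were none), the 2 strongest of each line with ties, the 2 with the smallest p in each direction, and the strongest of each gene group. A region of 22RV1 that the rule names is not reported here, in the text or the plots of named regions. The regions, gene groups and rules were chosen with earlier results of these data known. Same-numbered samples did not deviate together (21 correlations from −0.0339 to 0.111, 1 of them over 0.1), so numbers were not taken as pairs. Alternatives covered length, distance, gap, q, thinning and left-out samples. Python 3.11.15, numpy 2.4.6, pandas 2.3.3, SciPy 1.17.1 and matplotlib 3.10.9 were used.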

Additional observations from a re-analysis of the deposited data

How the results depend on the processing

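The pooled count of 545 moved to 82 for segments of at least 200 bp, 288 for centres within 500 bp, 833 for 2 kb, 292 with no DMSO interval within 200 bp, 283 at −log10 q of at least 1.3 with FHT-1015, 166 at −log10 q of at least 5 in both treatments and 363 after thinning. Leaving out line 92-1 gave 508 and MV411 507, both added after seeing the data. By line, segments of at least 200 bp numbered 1 in 92-1, 15 in 22RV1, 13 in RD, 22 in A375, 22 in DU4475, 5 in HCT116 and 5 in MV411. Centres within 500 bp gave 23, 85, 19, 44, 42, 52 and 25 in the same order, and 2 kb gave 70 in RD, 181 in A375 and 118 in DU4475. No DMSO interval within 200 bp gave 24 in 92-1, 76 in 22RV1, 20 in RD, 61 in A375, 35 in HCT116 and 25 in MV411. The threshold on q of 1.3 gave 111 in 22RV1, 5 in RD, 44 in A375 and 11 in DU4475. That of 5 gave 0 in 92-1 and RD, 20 in 22RV1, 40 in A375, 1 in DU4475 and 15 in MV411, while HCT116 rose from 82 to 92, of which 3 were among the 82. Thinning gave 20 in 92-1, 108 in 22RV1, 20 in RD and 60 in A375. Most of these fall by construction, since fewer segments can pass.

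Leaving out 1 sample lowers the demand on its group, and the pooled count then ran from 553 to 1215. It passed 1.5 times the main count without FHT-1015 replicate 1, 2 or 3 of 22RV1 (1208, 1215 and 1059), replicate 1 of 92-1 (955), 1 or 3 of A375 (910 and 903), 1 of HCT116 (876), 3 of DU4475 (840) and 2 of RD (828). By line the ranges were 231 to 848 in 22RV1, 45 to 451 in 92-1, 151 to 485 in A375, 111 to 368 in DU4475, 160 to 414 in HCT116, 64 to 169 in MV411 and 57 to 327 in RD. In the test over the other lines 0 regions passed in either direction under all 8 alternatives of each direction, with the lowest adjusted p of a gained region at 1. These alternatives share the limit that only a near-complete switch in most lines could pass. With the replicate number as a block, 0 passed in either direction, and at an unadjusted exact p under 0.05 there was 1 called more and 4 called less often. The lists hold no counts below their threshold, so a signal in DMSO just short of a call cannot be told apart from none.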
